A study of Mus musculus with 2 samples.

Results

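The lysosomal enzymes, cathepsins and cystatins were examined in RNA from whole vagina of *Fbln5-/-* and WT mice. The group was a fixed list of 38 genes, matched to the array as probe sets annotated to 1 of these genes and no other. A probe set is a group of short array probes read together as 1 signal, and 76 of the 45101 probe sets on each array qualified, for 37 of the 38 genes. *Cd63*, a tetraspanin of late endosomes, was not listed in the annotation used and has no value here. Both groups were female mice on the C57/Bl6 background, labelled as 6 months of age, ovariectomized and then given estradiol at 50 µg/kg/d for 3 d. They differed by genotype, *Fbln5-/-* (loss of fibulin-5, a protein needed to assemble elastic fibers) against wild type. The sample labels place ovariectomy at 11 d, the methods place estradiol treatment 2 weeks after ovariectomy, and the sources do not settle which holds for these animals. The methods name 2 animals in each group, 1 array per genotype was analysed here, and pooling of RNA is not stated.

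Lysosomes break down protein, sugar chains and lipid with acid hydrolases, and cathepsins are their main proteases. Cystatins block the cysteine cathepsins, inside cells (*Cstb*) or after secretion (*Cst3*, *Cst6*). In mouse skin, a stratified epithelium like that of the estrogenized vagina, cystatin M/E (*Cst6*) restrains legumain and cathepsin L, and cathepsin L in turn processes transglutaminase 3, an enzyme that crosslinks the cornified layer. Cathepsins K, L and S can cut elastin, the protein of elastic fibers.

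Genes of lysosomal enzymes are known to share an E-box, the letters CACGTG, which the MiT/TFE factors bind within a longer palindrome called the CLEAR element. The windows searched ran from 250 bases before to 50 bases after each annotated start (RefSeq, GRCm38.p6), and the letters read the same on both strands. The table held a window for 30 of the 38 genes and had no entry for *Ctsb*, *Ctsh*, *Ctse*, *Cst6*, *Cstb*, *Galns*, *Asah1* and *Npc1*. Of the 30 genes, 10 (33.3%) had at least 1 E-box, against 8.09% of all 27025 genes with a window. Counted by window the shares were 30.3% of 33 and 7.15% of 32851. The form with 1 more base on each side, TCACGTGA, was in 2 of the 30 genes (*Ctsa* and *Ctsd*) and in 1.12% of all genes. The full palindrome, with a G before and a C after that, was in none of the 30 and in 0.37% of all genes. These are letter matches in windows of 1 length, not adjusted for base composition, and no binding was measured.
The stretches below are examples that hold the shared letters, from genes whose signals are described further on. The remaining genes with an E-box, also described further on, are named after them without a stretch. E-boxes are in capitals and positions count from the annotated start, with bases before it negative.
*Lamp1*, chr8:13159085-13159160, plus strand, E-boxes at −61, −45, −28 and −15: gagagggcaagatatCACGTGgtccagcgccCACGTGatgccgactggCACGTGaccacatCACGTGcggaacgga
*Ctsl*, chr13:64370736-64370770, minus strand, E-box at −236: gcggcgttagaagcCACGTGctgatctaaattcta
*Lgmn*, chr12:102439121-102439156, minus strand, E-box at −49: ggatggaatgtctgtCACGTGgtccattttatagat
*Ctsd*, chr7:142387905-142387940, minus strand, E-box at −98 (another at −245 is not shown): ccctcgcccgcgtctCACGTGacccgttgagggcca
*Ctsa*, chr2:164833758-164833787, plus strand, E-boxes at −12 and 5: tgtCACGTGatgcagatgctCACGTGacca
*Naglu*, chr11:101070006-101070041, plus strand, E-box at −73: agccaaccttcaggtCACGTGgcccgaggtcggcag
*Ctsf*, chr19:4855071-4855106, plus strand, E-box at −79: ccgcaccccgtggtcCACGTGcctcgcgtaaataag
*Lamp1* stood out by number, with 4 E-boxes, a count reached by 8 of the 32851 windows (0.0244%). The other 3 genes with an E-box were *Gaa*, *Glb1* and *Arsa*.

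On the arrays, most of these genes differed by less than 2-fold between the genotypes, as did most genes measured. The deposited intensities were scaled to a common median, and a probe set was kept when its signal was at least 100 on at least 1 array, which 62 of the 76 met. Each gene was then represented by its brightest probe set, and ratios are log2 of *Fbln5-/-* over WT. Of the 37 genes, 34 (91.9%) were within 2-fold, against 88.0% of all genes measured. Only *Ctse* was higher in *Fbln5-/-* by 2-fold or more, against a background of 7.21% of the 11934 genes measured, and *Galc* and *Ctsf* were lower by 2-fold or more in their measured signals, against 4.77%. These 3 passed the filter through 1 array alone, so their direction was fixed by the filter. With signals under 100 set to 100, *Ctse* and *Galc* remained (background 5.8% higher and 3.95% lower). None of the 34 genes with both signals at 100 or more was past 2-fold, where 5.26% of 10990 such genes were higher and 3.59% lower. Nor was any of the 25 with a mean signal of at least 1000, against 4.72% higher and 3.15% lower over all genes that bright. With 1 array per genotype there is no test, and no ratio below has a replicate check.
The median ratio of the 37 genes was 0.25 on the log2 scale (quartiles −0.14 and 0.45), and that of all genes measured was 0.16 (quartiles −0.17 and 0.50). Ratios above 0 were found for 23 of the 37 genes and for 63.6% of all genes. A median above 0 is thus shared with the whole array, and 21 of the 37 genes lay above the median of all genes. Scaling the arrays instead to a median ratio of 1, over probe sets with both signals at 100 or more, brought the 2 medians to 0.14 and 0.05. That scaling gave 679 genes higher and 698 lower by 2-fold over the whole array, in place of 861 and 569, and left 1 higher and 2 lower here. At a 1.5-fold difference, 5 of the 37 were higher (*Ctse*, *Ctsl*, *Man2b1*, *Cst6* and *Ctsa*) against 20.0% of all genes, and the same 2 were lower against 10.4%.

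**Figure D1:**
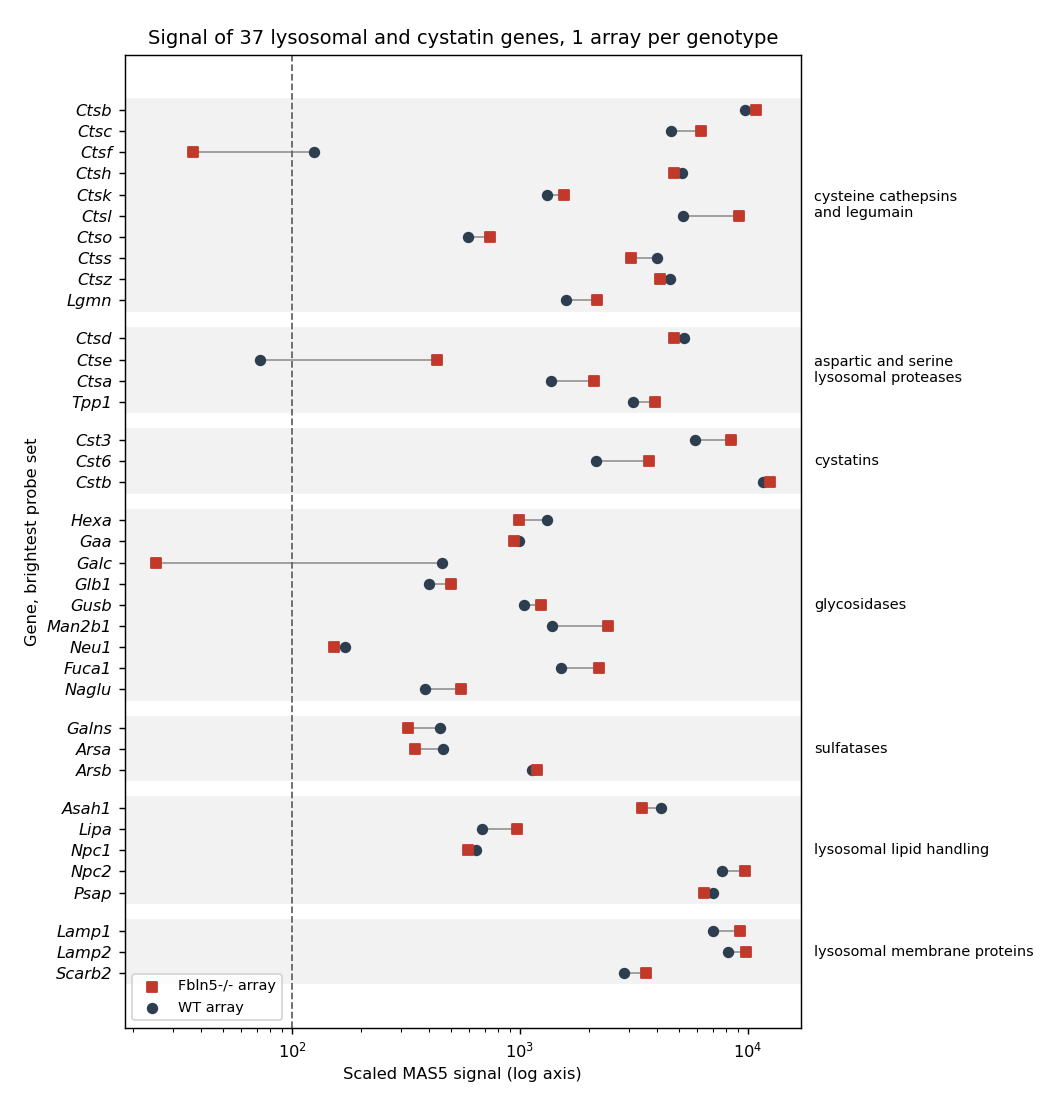
Scaled signal (log axis) of the brightest probe set of 37 genes, ordered by role, on the *Fbln5-/-* array (red squares) and the WT array (dark circles), 1 array each, with a dashed line at 100. The 2 marks lie close for most genes, and *Ctse*, *Galc* and *Ctsf* are the 3 with 1 mark under 100.

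**Figure D2:**
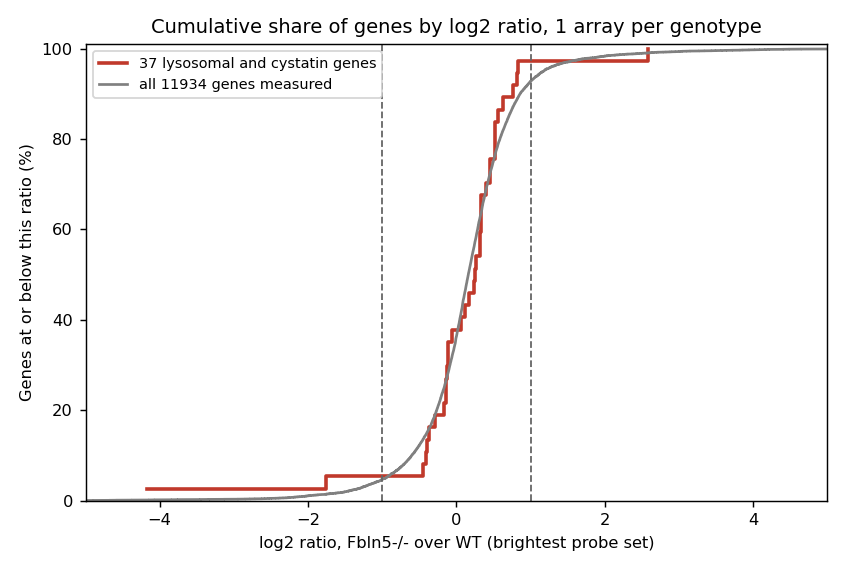
Cumulative share of genes (%) by log2 ratio of *Fbln5-/-* over WT for the 37 genes (red) and all 11934 genes measured (grey), with dashed lines at a 2-fold difference. The curves run close together, with medians of 0.25 and 0.16.

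The arrays were checked first at the targeted gene and at RNA controls. *Fbln5* had a signal of 30.4 on the *Fbln5-/-* array and 410.4 on the WT array, and its second probe set was under 100 on both. For *Gapdh*, the control at the 3′ end had signals of 13829 on the *Fbln5-/-* array and 13329 on the WT array, while that at the 5′ end had 794.7 in *Fbln5-/-* and 17262 in WT (log2 ratio −4.44). The matching log2 ratios of *Actb* were −0.18 (3′) and −1.87 (5′). Defining genes of vaginal tissue were bright on both arrays, including the epithelial keratin *Krt13* (21197 on the *Fbln5-/-* array and 19999 on the WT array) and the smooth muscle actin *Acta2* (16566 in *Fbln5-/-* and 15045 in WT). In whole tissue, fewer cells of a type and less RNA per cell cannot be told apart.

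The cysteine cathepsins and legumain were 10 genes with a median log2 ratio of 0.20, and 9 were within 2-fold. *Ctsl*, cathepsin L, had the largest ratio among them, with a signal of 9138 on the *Fbln5-/-* array and 5163 on the WT array (1.77-fold higher). Its second probe set was under 100 on both arrays. *Lgmn*, the asparaginyl endopeptidase legumain, had signals of 2165 in *Fbln5-/-* and 1590 in WT (log2 ratio 0.45), and *Ctsc*, which activates serine proteases of immune cell granules, had 6250 in *Fbln5-/-* and 4580 in WT (also 0.45). *Ctsb*, an abundant cathepsin of most cells, had 10859 in *Fbln5-/-* and 9665 in WT at its brightest probe set. Its 3 other probe sets past the filter gave log2 ratios of −0.42, 0.62 and 0.87, so its probe sets spread to both sides of 0.
*Ctsk*, the collagen-cutting cathepsin of osteoclasts and fibroblasts, had signals of 1555 in *Fbln5-/-* and 1317 in WT (log2 ratio 0.24). *Ctss*, which trims the MHC class II chaperone in antigen-presenting cells, had 3080 in *Fbln5-/-* and 3997 in WT (−0.38). The elastin-cutting cathepsins thus did not share a direction, with *Ctsl* and *Ctsk* above 0 and *Ctss* below it. *Ctsh*, an aminopeptidase, and *Ctsz*, a carboxypeptidase, had log2 ratios of −0.11 and −0.14, and *Ctso* had 0.33.
*Ctsf* had a signal of 36.9 on the *Fbln5-/-* array and 124.7 on the WT array. Against 100, the difference is at least 1.25-fold lower, and its second probe set was under 100 on both arrays.
Macrophages are rich in cathepsins, and their markers went both ways. Among 19 with a value, 3 were past 2-fold in the higher direction and 2 in the lower (7.21% and 4.77% of all genes), and 73.7% were within 2-fold against 88.0% of all genes, with a median log2 ratio of 0.02 and a summed signal of 35829 on the *Fbln5-/-* array and 34311 on the WT array. Of the 2 lower, *Itgam* (76.4 in *Fbln5-/-* and 433.8 in WT) passed the filter through the WT array alone, which fixed its direction. *Cd68*, itself a lysosomal glycoprotein, had signals of 769.7 in *Fbln5-/-* and 783.4 in WT. The mannose receptor *Mrc1* had 2175 in *Fbln5-/-* and 810.8 in WT (2.68-fold higher), and the complement gene *C1qa* had 184.3 in *Fbln5-/-* and 1847 in WT (10.0-fold lower) while its partner *C1qb* had 2065 in *Fbln5-/-* and 1875 in WT. Signals summed over different genes are no measure of cell content. The part of macrophages in the cathepsin signals was not tested.

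Among the aspartic and serine proteases of the lysosome, the data divided at *Ctse*. Cathepsin E is an aspartic protease of epithelial and immune cells. Its brighter probe set had a signal of 432.6 on the *Fbln5-/-* array and 72.2 on the WT array, at least 4.33-fold higher against 100. Its other probe set had 3.39 on the *Fbln5-/-* array and 373.1 on the WT array, with the opposite direction. No direction for the gene follows from the pair, and the mean over both was −2.10. *Ctsd*, the main aspartic protease of lysosomes, had 4724 in *Fbln5-/-* and 5225 in WT (log2 ratio −0.15) from 1 probe set. *Ctsa*, the carboxypeptidase that protects β-galactosidase and neuraminidase, had 2110 in *Fbln5-/-* and 1368 in WT (1.54-fold higher), with 0.03 at a second, dim probe set. *Tpp1*, a tripeptidyl peptidase, had log2 ratios of 0.31 and 0.62.

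All 3 cystatins had higher signals on the *Fbln5-/-* array, each by less than 2-fold, where 63.6% of all genes had ratios above 0. Only 2 of the 3 lay above the median of all genes, and *Cstb* lay below it. *Cst6*, cystatin M/E, had a signal of 3673 on the *Fbln5-/-* array and 2157 on the WT array (1.70-fold). *Cst3*, the secreted cystatin C found in most tissues, had 8455 in *Fbln5-/-* and 5881 in WT (1.44-fold). *Cstb*, the cytosolic stefin B, had 12497 in *Fbln5-/-* and 11582 in WT, with log2 ratios of 0.11 and 0.28 at its 2 probe sets. *Cst6* and its targets *Ctsl* and *Lgmn* had log2 ratios of 0.77, 0.82 and 0.45, all above 0 as were 63.6% of all genes. The 3 stayed between 0.34 and 0.82 under every alternative that gave them a value. *Tgm3*, the substrate of cathepsin L, had 7315 in *Fbln5-/-* and 2371 in WT (3.08-fold higher), and 0.82 at a second probe set.
Of 23 other genes listed for the cystatin superfamily, only 4 passed the filter. All 4 were higher in *Fbln5-/-* by more than 2-fold (7.21% of all genes), with 1 probe set each and both signals above 100. Their median log2 ratio was 1.57, and without the filter on low signals the median of the list was 0.67. *Fetub*, fetuin B, a secreted member known from liver, had a signal of 6438 on the *Fbln5-/-* array and 517.6 on the WT array (12.4-fold). The stefin A genes are cytosolic cathepsin inhibitors of epithelium and neutrophils. Among them, *Stfa2l1* had 1215 in *Fbln5-/-* and 325.2 in WT (3.74-fold), *Stfa3* had 3445 in *Fbln5-/-* and 1452 in WT (2.37-fold), and *Csta1* had 8837 in *Fbln5-/-* and 3911 in WT (2.26-fold). Stefin A genes are near-identical copies, so signal assigned to 1 of them is uncertain. A probe set listed with 2 genes of this group at once had 18858 in *Fbln5-/-* and 10156 in WT (log2 ratio 0.89).
Of 22 markers of cornified and suprabasal epithelium with a value, 17 were within 2-fold, 5 were higher by 2-fold or more (7.21% of all genes) and 0 were lower, with a median of 0.31. Those higher included *Rptn* (4.37-fold) and *Flg* (4.10-fold), while *Tgm1*, another transglutaminase of the cornified layer, had 4159 in *Fbln5-/-* and 7120 in WT (log2 ratio −0.78), and *Cnfn* was also below 0 (−0.11). Their summed signal was 283162 on the *Fbln5-/-* array and 225729 on the WT array. Signals are comparable within a gene only, so this sum is no measure of cell content. The 8 basal epithelium markers had a median of 0.16, with none past 2-fold. The part of these epithelial markers in the cystatin ratios was not tested.

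**Figure D3:**
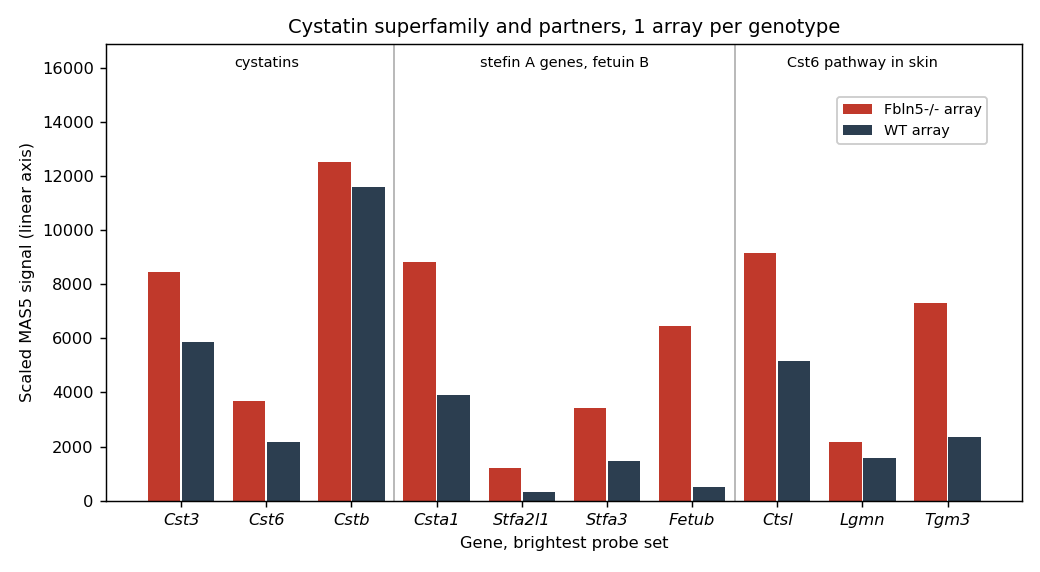
Scaled signal (linear axis) of cystatin genes, of stefin A genes and fetuin B, and of 3 genes of the *Cst6* pathway known from skin, on the *Fbln5-/-* array (red bars) and the WT array (dark bars), brightest probe set, 1 array each. Every red bar is taller than its partner, by 1.08-fold for *Cstb* and 12.4-fold for *Fetub*, where 63.6% of all genes had ratios above 0. Of the 23 other genes listed for the cystatin superfamily, only the 4 past the filter are drawn. Heights are comparable within a gene only.

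The 9 glycosidases had a median log2 ratio of 0.25. *Galc*, galactosylceramidase, which degrades myelin galactolipids and is lost in Krabbe disease, had a signal of 25.2 on the *Fbln5-/-* array and 456.0 on the WT array, at least 4.56-fold lower against 100. Its other probe sets were under 100 on both arrays, the brighter of them with 40.6 in *Fbln5-/-* and 92.9 in WT. *Man2b1*, lysosomal α-mannosidase, had 2431 in *Fbln5-/-* and 1375 in WT (1.77-fold higher). *Fuca1*, α-fucosidase, had 2213 in *Fbln5-/-* and 1505 in WT (log2 ratio 0.56), but its 2 dimmer probe sets gave −0.64 and −2.36. *Naglu*, which trims heparan sulfate, had 551.5 in *Fbln5-/-* and 383.2 in WT (0.53).
*Gusb*, β-glucuronidase, had 1238 in *Fbln5-/-* and 1043 in WT at its brightest probe set (log2 ratio 0.25), and 43.4 in *Fbln5-/-* and 216.7 in WT at its other one. The remaining glycosidases were within 1.5-fold, with *Hexa* (the α subunit of β-hexosaminidase) at −0.41, *Neu1* (neuraminidase) at −0.17, *Gaa* (acid α-glucosidase) at −0.07 and *Glb1* (β-galactosidase) at 0.32. *Glb1*, *Neu1* and *Ctsa* form 1 complex in the lysosome, and their ratios were 0.32, −0.17 and 0.63.
The 3 sulfatases, which remove sulfate from sugar chains and lipids, were likewise within 1.5-fold. *Galns* had 323.8 in *Fbln5-/-* and 443.5 in WT (log2 ratio −0.45), and *Arsa* had 346.8 in *Fbln5-/-* and 458.2 in WT (−0.40). *Arsb* had 1183 in *Fbln5-/-* and 1133 in WT (0.06), and it was the 1 gene of the 37 whose sign changed with the scaling, in 3 of the other scalings tried.

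*Galc*, *Lgmn* and *Npc2* lie on chromosome 12 with *Fbln5*. In the GRCm38.p6 gene order, 24 protein-coding genes separate *Galc* from *Fbln5*, 6 separate *Lgmn* from it and 99 separate *Npc2* from it. Of the 14 measured between *Galc* and *Fbln5*, 1 was past 2-fold in the higher direction and 0 in the lower (7.21% and 4.77% of all genes). Their median log2 ratio was 0.17, against 0.16 for all genes. The ratios between them ran from −0.81 for *Ppp4r3a* to 1.88 for *Ccdc88c*. For only 14 genes, 0 in the lower direction is near the share of all genes. The other genes between *Galc* and *Fbln5* have no value here, and an effect shared by the region was not tested.

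**Figure D4:**
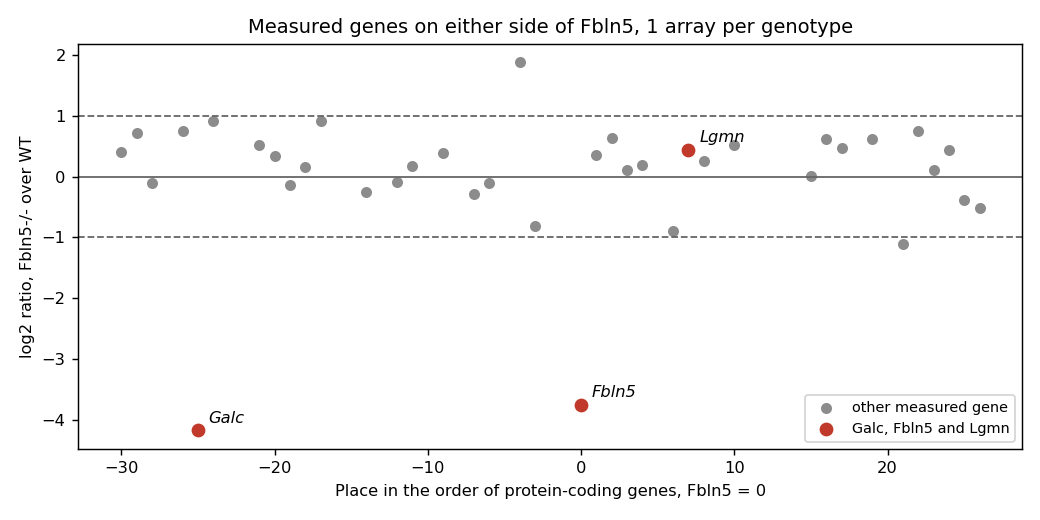
Log2 ratio of *Fbln5-/-* over WT, 1 array each, for measured genes by their place in the order of protein-coding genes, with *Fbln5* at 0 and dashed lines at a 2-fold difference. *Fbln5* (at least 4.1-fold lower against 100) and *Galc* (at least 4.56-fold lower) are drawn at their measured ratios, which rest on *Fbln5-/-* signals under 100, and lie below the measured genes between them, while *Lgmn* (0.45) lies among its neighbors.

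Genes of lysosomal lipid handling were within 2-fold at their brightest probe sets, with a median log2 ratio of −0.12 over 5 genes. *Lipa*, the acid lipase that frees cholesterol from its esters, gave 0.52, 0.86 and 0.48 at its 3 probe sets. *Npc2*, which hands cholesterol on, had 9691 in *Fbln5-/-* and 7694 in WT, and its 3 probe sets past the filter gave between 0.21 and 0.36. *Npc1*, its membrane partner, had 591.3 in *Fbln5-/-* and 641.1 in WT (−0.12). *Asah1*, acid ceramidase, had 3419 in *Fbln5-/-* and 4171 in WT (−0.29).
*Psap*, the precursor of the saposins that present lipids to their enzymes, was the sharpest case of unequal probe sets with both arrays at 100 or more. Its brighter probe set had a signal of 6410 on the *Fbln5-/-* array and 7028 on the WT array (log2 ratio −0.13). The other had 298.6 on the *Fbln5-/-* array and 4764 on the WT array (−4.00).
The membrane proteins of the lysosome were close to even. *Lamp1* had 9178 in *Fbln5-/-* and 6995 in WT (log2 ratio 0.39). *Lamp2* was read by 4 probe sets, the most of any gene here that all ran in 1 direction, with ratios between 0.18 and 0.46. *Scarb2*, the receptor that carries β-glucocerebrosidase to lysosomes, gave 0.33 and −0.03.

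Probe sets of 1 gene served as the only repeat measurement within an array. Of the 37 genes, 16 had several probe sets past the filter. In 7 of these all ratios were above 0, in 1 all were below 0 and in 8 they had both signs, as in 47.7% of 4893 such genes over the whole array. Ratios at least 1 log2 unit apart were found in 5 of the 16, *Ctsb*, *Ctse*, *Gusb*, *Fuca1* and *Psap*, against 30.8% of the 4893. Over all genes, among probe sets with both signals at 100 or more, those of 1 gene varied with an SD of 0.52 on the log2 scale (4114 genes). Ratios such as those of *Ctsc*, *Lgmn* or *Lamp1* are within that spread. Those of *Ctsl* (0.82), *Man2b1* (0.82) and *Cst6* (0.77) exceed it and rest on 1 probe set each past the filter. Those of *Ctsa* (0.63), *Fuca1* (0.56) and *Naglu* (0.53) also exceed it, by less. These distances count from 0, while the median of all genes was 0.16, and 1 SD is not an outer limit of that spread. This SD holds no variation between animals or between arrays of a genotype, so it cannot tell whether any ratio would recur. Counted as probe sets, 1 of the 62 was at least 2-fold higher, against 6.29% of 19627, and 6 were at least 2-fold lower, against 8.65%. The 6 belonged to *Ctsf*, *Ctse*, *Galc*, *Gusb*, *Fuca1* and *Psap*. Only that of *Psap* had both signals at 100 or more. The others passed the filter through the WT array alone, and the 1 higher, of *Ctse*, through the *Fbln5-/-* array alone, so their direction was fixed by the filter. For 4 of the 6 (*Ctse*, *Gusb*, *Fuca1* and *Psap*) a brighter probe set of the gene was higher or within 1.1-fold. The 5′ controls of *Gapdh* and *Actb* were low on the same *Fbln5-/-* array. Where along each transcript the probe sets lie was not analysed here, and the part of RNA quality in these low signals was not tested.

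**Figure D5:**
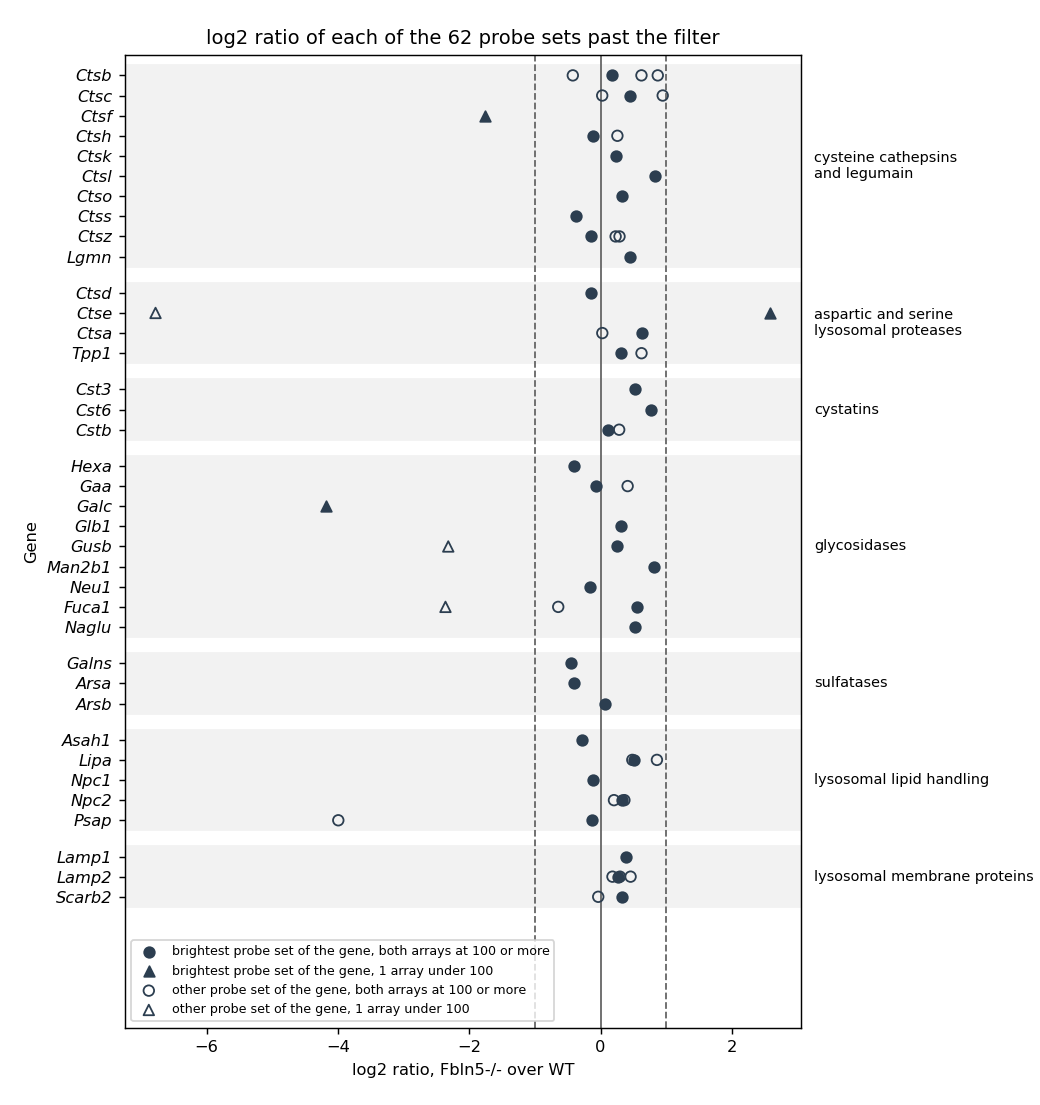
Log2 ratio of *Fbln5-/-* over WT for the 62 probe sets past the filter, by gene, with filled marks for the brightest probe set of a gene, open marks for its others, triangles where 1 array was under 100, and dashed lines at a 2-fold difference. Most marks lie between the dashed lines, while *Ctse*, *Psap*, *Gusb* and *Fuca1* have open marks far to the left of their filled ones.

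The 10 genes with an E-box in the searched window had a median log2 ratio of 0.35, and the 19 measured genes with a window and no E-box had 0.27. Both groups spread to both sides of 0. Among the 10, *Ctsl* (0.82) and *Ctsa* (0.63) had the highest ratios. *Arsa* (−0.40), *Ctsd* (−0.15) and *Gaa* (−0.07) lay below 0, as did *Ctsf*, for which there is only the bound given above. *Lamp1*, with its 4 E-boxes, was at 0.39.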

How the data were processed

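RNA from the vagina of estradiol-treated *Fbln5-/-* and WT mice was hybridized to Affymetrix mouse expression arrays, 1 per genotype. The authors deposited linear signal intensities, made with MAS5 per the submitters' processing notes, which give no version, with a trimmed mean of 500.0 on both arrays. Medians of 67.9 (*Fbln5-/-*) and 71.8 (WT) were scaled to a common value by factors of 1.03 and 0.972, after the 50th percentile normalization in the methods. A single signal of 0 was set to 0.1. Signals under 100 made up 55.9% of *Fbln5-/-* and 54.8% of WT probe sets. The platform annotation listed 34958 probe sets with 1 gene, 932 with several and 9211 not at all, and genes were named from the first kind only. A fold with 1 signal under 100 was computed against 100 and is a bound. Detection calls were not used here, and no test, error or p-value is possible with 1 array per genotype, so the number of arrays limits the precision.

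Every gene of the list is accounted for. From each other list, up to 4 genes with the largest ratio at 100 or more on both arrays and up to 2 bounds could be named. *Cd68*, *C1qb*, *Krt13*, *Acta2*, *Tgm1*, *Cnfn*, *Cidea*, *Ppp4r3a* and *Ccdc88c* were added after their values were seen. The list and the other gene lists were chosen with earlier results of these data known. Alternatives were other scalings, filters, floors, 32 added to each signal, thresholds and probe set rules. Counting only genes whose probe sets all passed was chosen after seeing the data. The steps were tested on simulated data. Python 3.11.15, numpy 2.4.6, pandas 2.3.3 and matplotlib 3.10.9 were used.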

Additional observations from a re-analysis of the deposited data

How the results depend on the processing

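The 2-fold counts over the 37 genes, 1 higher and 2 lower, stayed 1 and 2 under all 4 other scalings (as deposited, quantile, 75th percentile, median ratio), without a filter and with 32 added to signals. They were also 1 and 2 with probe sets of shared-sequence suffixes left out. Only 28 of the genes had a value there, and the *Ctse* probe set of opposite direction was among those left out. With at least 100 on both arrays they were 0 and 0, since *Ctse*, *Galc* and *Ctsf* are then not tested. The lower count was 1 with at least 200 on 1 array and 1 with signals under 100 set to 100, where *Ctsf* is lost. With the ratios of a gene's probe sets averaged they were 0 higher and 5 lower, and *Ctse* turned to −2.10 on the log2 scale. At 1.5-fold 5 were higher. Counting only genes whose probe sets all passed gave 0 higher. The median ratio, 0.25, ranged from 0.14 (scaling to a median ratio of 1) to 0.27. Over all genes that scaling gave 679 higher and 698 lower, the mean over probe sets 779 and 835, no filter 2048 and 1535, and at least 100 on both arrays 578 and 395, against 861 and 569. Of 393 recomputed ratios of single genes of the list, 385 moved by less than the SD between probe sets of a gene. A change of filter leaves a ratio as it was where the same probe set is kept, so this count is a weak check. With probe sets averaged, *Psap* was at −2.06, *Gusb* at −1.04 and *Fuca1* at −0.82. No paired analysis was possible because there is 1 array per genotype, and neither array could be left out.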

Other observations

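Other parts of the lysosomal system were mostly within 2-fold, as were 88.0% of all genes, with 7.21% higher and 4.77% lower. Of 20 subunits of the V-ATPase, the pump that acidifies lysosomes, 17 had ratios above 0, where 63.6% of all genes did. Their median log2 ratio was 0.31, against 0.16 for all genes. Among the 20, 2 were at least 2-fold higher and 1 was lower, and these 3 are subunit forms restricted to certain tissues. *Atp6v1c2* had a signal of 946.6 on the *Fbln5-/-* array and 242.1 on the WT array, and *Atp6v0a4* had 147.6 in *Fbln5-/-* and 457.7 in WT (3.10-fold lower). *Atp6v0d2* had 392.7 in *Fbln5-/-* and 82.5 in WT (at least 3.93-fold higher against 100). It passed the filter through the *Fbln5-/-* array alone, which fixed its direction. None of the 10 genes of mannose 6-phosphate sorting, which delivers hydrolases to lysosomes, was past 2-fold (median 0.09, from −0.14 to 0.18 over the alternatives), and none of the 16 MiT/TFE and mTORC1 genes was (median 0.08, from −0.10 to 0.09). Among these, *Tfeb* had 262.0 in *Fbln5-/-* and 436.9 in WT, and *Mitf* had 593.3 in *Fbln5-/-* and 318.9 in WT.

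Of 28 further lysosomal enzymes and activators, 1 was at least 2-fold higher and 3 were lower, with a median of 0.43. *Dnase2a*, which digests DNA of engulfed cells, had 257.0 in *Fbln5-/-* and 118.9 in WT. *Smpd1*, acid sphingomyelinase, had 844.4 in *Fbln5-/-* and 1958 in WT, with −1.21 and −0.75 at its 2 probe sets. *Plbd2* gave −1.27 and −0.06 at its 2 probe sets, and *Hyal2*, a hyaluronidase, had 211.2 in *Fbln5-/-* and 552.8 in WT. Of 26 other lysosomal membrane and transport proteins, 0 were at least 2-fold higher and 1 was lower in measured signals (7.21% and 4.77% of all genes). With signals under 100 set to 100, 0 were past 2-fold in either direction (5.8% and 3.95%). The 1 lower was *Abca2*, a transporter named after its value was seen, with 48.1 on the *Fbln5-/-* array and 103.6 on the WT array. It was at least 1.04-fold lower and passed the filter through the WT array alone. The adipocyte list had 7 genes with a value. *Adipoq*, *Lpl*, *Fabp4* and *Plin4* had both signals at 100 or more and were higher in *Fbln5-/-* by 2.34-fold to 10.9-fold, against 5.26% of all such genes at 2-fold or more. *Cidea*, *Retn* and *Ucp1* passed the filter through the *Fbln5-/-* array alone, which fixed their direction.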
